A study of Mus with 6 samples.

Results

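The genes described here are the nuclear genes of respiratory complex I that carry an Nduf name, measured in the basolateral amygdala of mice. They were taken from a deposited table of 54532 genes as the protein-coding genes named Ndufa, Ndufb, Ndufc, Ndufs, Ndufv, Ndufab or Ndufaf with a number, leaving out Ndufa4l2. The rule found 45 genes, of which 37 were counted as subunits and 8 encode the assembly factors Ndufaf1 to Ndufaf8. The 37, and the sums over them, include Ndufa4, which is now assigned to complex IV. The study holds 6 RNA-seq libraries from mice labelled female, 3 labelled wild type (WT) and 3 labelled CNTNAP4-KO (KO), numbered 1 to 3 in each group. The KO animals are labelled as knockouts of Cntnap4, a contactin-associated membrane protein of neurons, and the labels give neither the allele, the strain, the age, any treatment, nor whether each library came from its own animal. The p-values therefore rest on the spread among 3 libraries a group, and that spread may be technical.

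Complex I is the entry point of the mitochondrial respiratory chain. Its peripheral arm, in the matrix, takes electrons from NADH through a flavin and a row of iron-sulphur clusters to ubiquinone, and its membrane arm pumps protons across the inner membrane. The catalytic core is encoded partly in the nucleus and partly in mitochondrial DNA (the mt-Nd genes). Many small accessory subunits, all nuclear, surround that core, and assembly factors help to build the complex without staying in it. Neurons depend on the respiratory chain for most of the ATP that synaptic activity uses.

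Each library held from 15933029 to 17789798 reads assigned to genes, as recovered from the deposited values. Cntnap4 was at 3.53, 3.90 and 2.15 FPKM (the deposited unit, which divides fragment counts by gene length and library size) in the WT libraries but at 1.08, 1.19 and 1.28 in the KO libraries, so the groups did not overlap. WT3 stood apart in mitochondrial transcripts, with 8.34% of its reads on genes of mitochondrial DNA against 4.10% to 6.31% in the other 5 libraries. Neuronal markers (Snap25, Syt1, Rbfox3, Slc17a7, Gad1 and Gad2) were all present, with a summed level of 791 to 914 FPKM in WT against 971 to 1176 in KO. Of these, 1 of 6 had a log2 fold change below 0, and 3 lay wholly above WT. Over all genes tested, 11.9% lay wholly above WT and 10.1% wholly below. The summed level of 5 microglial markers, of which 5 were below 0 and 3 wholly below WT, was 87.4 to 120 FPKM in WT against 60.5 to 75.9 in KO. Summed markers of striatal projection neurons, a neighbouring tissue, were 38.9 to 382 FPKM in WT against 28.3 to 151 in KO. All 4 striatal markers were below 0, and 0 lay wholly below WT. Meningeal and mural markers were each below 0 for 4 of 4 genes, of which 1 of each list lay wholly below WT, with sums of 6.73 to 21.7 and 38.4 to 76.0 FPKM in WT against 4.15 to 8.74 and 37.5 to 53.1 in KO. Markers of myelinating oligodendrocytes were below 0 for 0 of 5 genes, those of astrocytes for 4 of 5 and those of endothelium for 3 of 4. In these lists 0 genes lay wholly below and 0 wholly above WT. In choroid plexus and ependyma 1 gene each was tested, below 0 in the first and not in the second. The sums of the 8 marker lists other than neurons and microglia overlapped between the groups, and no marker was at 0 in all libraries.

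Complex I genes stood lower in KO than in WT for most members, by small amounts, and no single gene passed the test. The log2 fold change of FPKM + 1, KO minus WT, was below 0 for 39 of the 45 members, against 48.7% of the 13087 genes tested (mean FPKM of at least 1). The median was -0.16 over the members and 0.01 over all genes tested. In limma, with p adjusted over all genes tested, 0 of 45 members passed 0.05, and the smallest adjusted p of a member was 0.302. Across all genes 1 passed, or 0.00764%. At an unadjusted p under 0.05 there were 12 members lower and 0 higher, where 7.25% of all genes were lower and 7.05% higher. With voom on the recovered reads 0 members passed and 11 were lower at that level.

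All 3 KO values lay below all 3 WT values for 18 of the 45 members, against 10.1% of all genes tested. For 2 members, Ndufs1 and Ndufaf6, they lay above all WT values, against 11.9% of all genes. The remaining 25 overlapped. A WT library held the highest value for 37 members and a KO library the lowest for 36. Summed over the 37 subunits, the level was 1564, 1523 and 1478 FPKM in WT against 1324, 1331 and 1367 in KO. Every KO sum was below every WT sum, with means of 1522 ± 43.1 (SD, n = 3) and 1341 ± 23.2, a ratio of 0.881. These sums moved opposite to the summed neuronal markers and the same way as the summed microglial markers, and the part of either in the result was not tested. Bulk RNA cannot tell fewer cells of a type from less of a transcript per cell.

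**Figure D1:**
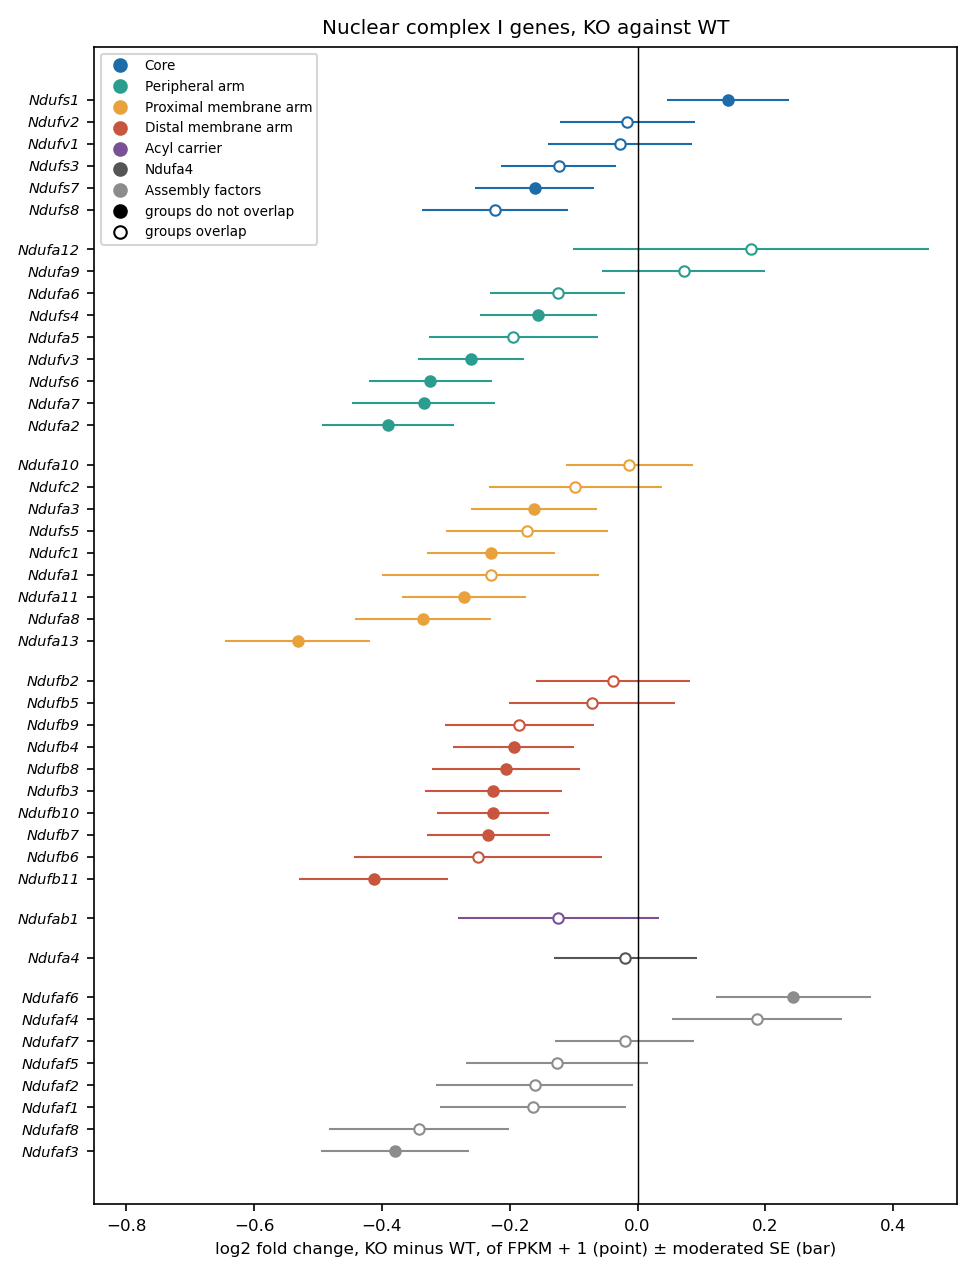
Log2 fold change (KO minus WT, FPKM + 1 scale; x axis) of 44 of the 45 members, with bars for the moderated standard error, in blocks by role. Filled points are genes whose 3 KO values do not overlap the 3 WT values. To the left of 0 lie 39 points, among them all 9 of the proximal and all 10 of the distal membrane arm. Over all genes tested 48.7% were below 0.

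**Figure D2:**
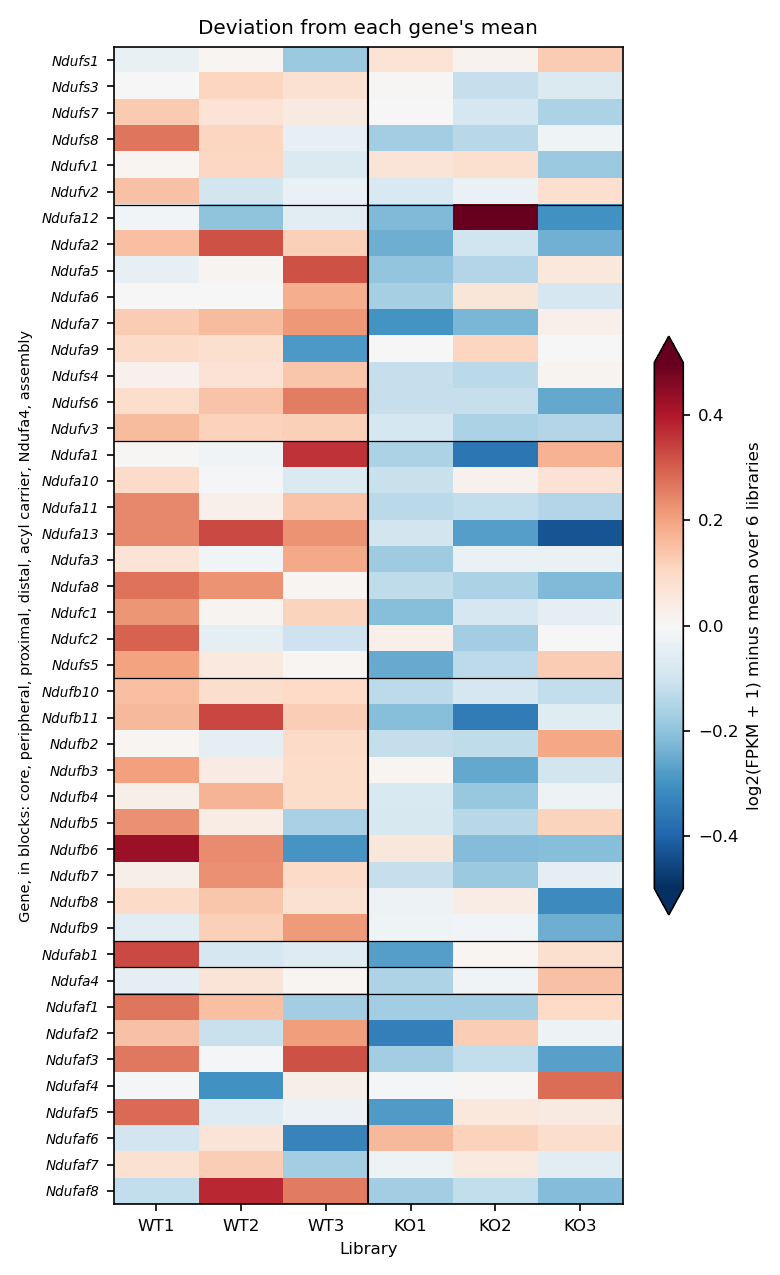
Values of 44 of the 45 members (rows, by role) in each library (columns), as log2(FPKM + 1) minus the gene's mean over the 6 libraries; red is above the mean and blue below, with colours ending at the scale's limits. Most rows are red in the 3 WT columns and blue in the 3 KO columns, while the block of core subunits is pale.

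The size of the difference followed gene length across the tested protein-coding genes, and the complex I genes are short. The subunits had a median length of 1569 bases in the table, and all protein-coding genes tested had 4484. Protein-coding genes under 1000 bases had a median log2 fold change of -0.25 (276 genes), and the 10 subunits of that class had -0.24. In the class of 1000 to 2000 bases the median was -0.17 over 1231 genes and -0.19 over 13 subunits. From 2000 to 4000 bases the values were -0.06 over 3584 genes and -0.03 over 9 subunits, and above 4000 bases 0.07 over 6724 genes and -0.07 over 5 subunits. In the 3 classes below 4000 bases the subunits therefore had about the median of all genes of their length.

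Groups that do not overlap were also common among short genes. KO lay wholly below WT for 28.3% of protein-coding genes under 1000 bases and for 5 of the 10 subunits of that length. From 1000 to 2000 bases these figures were 25.9% and 8 of 13 subunits. With the trend with length removed from each library, the median of the subunits was -0.08 in place of -0.19, 28 of 37 were below 0 (50.1% of all genes), and 8 in place of 17 lay wholly below WT (9.15% of all genes). Members lower at an unadjusted p under 0.05 then numbered 5 in place of 12 (5.89% of all genes), and 0 passed in limma after adjustment. What sets the trend with length was not tested.

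**Figure D3:**
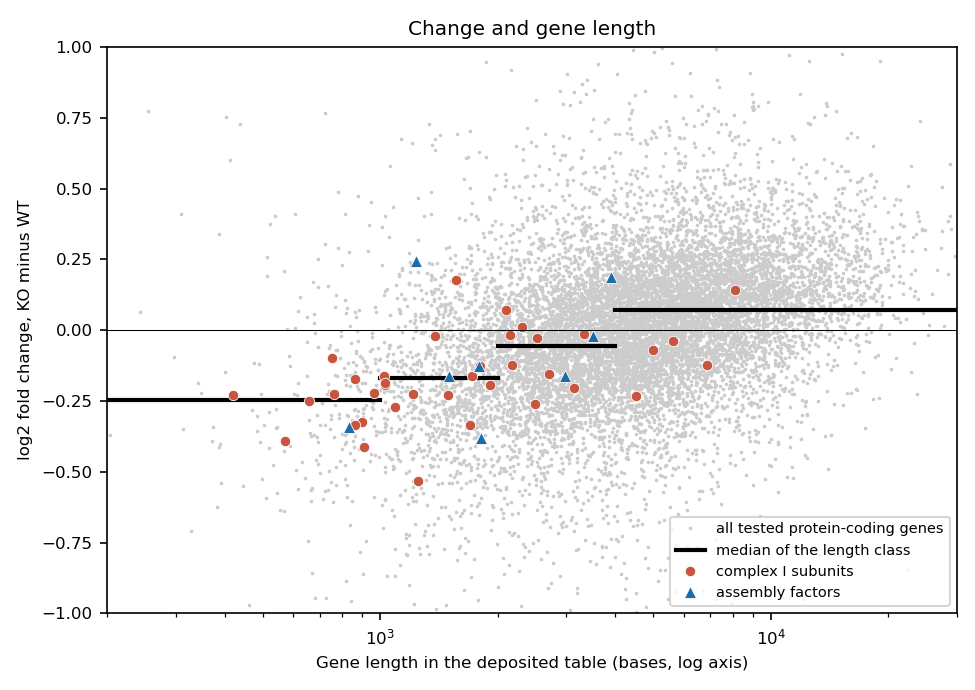
Log2 fold change (KO minus WT, y axis) against gene length in bases (x axis, log scale) for all tested protein-coding genes (grey). Red circles are the 37 genes counted as subunits, Ndufa4 included, and blue triangles the 8 assembly factors. Black lines are the medians of the grey genes in 4 length classes, -0.25, -0.17, -0.06 and 0.07 from short to long; 104 genes outside the axes are not drawn.

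Levels of the subunits spanned a 25.2-fold range of mean FPKM. Ndufa4 was at the top with 90.0, followed by Ndufc2 with 85.6. Ndufab1, with 3.57, and Ndufb2, with 4.50, were at the bottom. The table divides by lengths of 6883 bases for Ndufab1 and 5628 for Ndufb2, more than for any other subunit but Ndufs1 (8086), and FPKM is lower the longer the assigned length. Assembly factors were lower than most subunits, with a median of 8.62 FPKM and a range of 3.33 (Ndufaf2) to 17.3 (Ndufaf3). The fewest reads of a member in a library were 75, for Ndufaf6. The highest library exceeded the lowest by a median of 1.38 times across members.

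The 7 nuclear core subunits carry the flavin, the iron-sulphur clusters and the ubiquinone site. Their median log2 fold change was -0.03, in a range from -0.22 (Ndufs8) to 0.14 (Ndufs1). Of the 7, 5 were below 0 (48.7% of all genes tested), and 0 were at an unadjusted p under 0.05 in limma or voom. Ndufv1, which binds NADH and the flavin, was at 51.6, 55.1 and 48.6 FPKM in WT against 53.6, 54.2 and 44.8 in KO. Its partner Ndufv2, a ferredoxin-like subunit, was at 54.1, 45.7 and 47.6 in WT against 46.2, 47.6 and 51.7 in KO. Neither separated the groups, and the log2 fold changes of -0.03 (SE 0.11) and -0.02 (SE 0.11) turned positive under some scalings.

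Ndufs1, the large subunit that holds several iron-sulphur clusters, was the core gene with every KO value above WT. It was at 15.7, 16.3 and 14.1 FPKM in WT against 17.0, 16.4 and 17.7 in KO, where KO2 exceeded WT2 by little. The log2 fold change was 0.14 (SE 0.10, adjusted p = 0.504), and 0.05 with the length trend removed. Ndufs7, which holds the last cluster before ubiquinone, lay wholly below WT, at 55.5, 53.1 and 52.3 in WT against 50.7, 47.7 and 45.4 in KO. Its log2 fold change was -0.16 (SE 0.09, adjusted p = 0.445), and -0.05 with the length trend removed. Ndufs8, another iron-sulphur subunit, was at 76.1, 67.9 and 61.1 in WT against 55.6, 57.1 and 62.1 in KO, and KO3 exceeded WT3. Ndufs3, a subunit of the ubiquinone module, was at 34.7, 37.4 and 36.5 in WT against 34.8, 31.9 and 32.9 in KO, with WT1 and KO1 nearly equal. Ndufs8 (963 bases) had the lowest log2 fold change of the core genes, -0.22, and was the shortest of them, while Ndufs1 was the longest and had the highest.

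The 29 nuclear accessory subunits had a median log2 fold change of -0.21, with 27 below 0 and 16 wholly below WT. Their median length was 1251 bases, against 2178 for the core subunits. KO lay wholly below WT for 10.1% of all genes tested and for 25.9% of protein-coding genes of 1000 to 2000 bases. The shares below 0 were 48.7% and 75.1%. With the length trend removed 25 of the 29 were below 0 (50.1% of all genes) and 8 lay wholly below WT (9.15% of all genes). The medians were then -0.09 for the accessory and 0.04 for the core subunits. With the libraries rescaled to 1 common sum they were -0.15 and 0.03. The difference between core and accessory genes was described and not tested.

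Of the 9 accessory subunits of the peripheral arm, 7 were below 0 and 5 lay wholly below WT. Over all genes tested these shares were 48.7% and 10.1%. The median length of the 9 was 1701 bases. Among protein-coding genes of 1000 to 2000 bases the 2 shares were 75.1% and 25.9%. With the length trend removed 7 of the 9 were below 0 (50.1% of all genes). Then 3 lay wholly below WT (9.15% of all genes). Ndufa2, a small thioredoxin-fold subunit of the NADH-oxidising module, was at 71.7, 80.5 and 70.0 FPKM in WT against 54.2, 60.0 and 54.4 in KO. The groups did not overlap, and WT2 was the highest library. The log2 fold change was -0.39 (SE 0.10, adjusted p = 0.302), and -0.24 with the length trend removed. The gene (ENSMUSG00000014294) lies on chromosome 18 from 36742332 to 36744557, 572 bases long in the table. Its span overlaps that of Tmco6 on the other strand by 60 bases.

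Ndufs6, a zinc-binding subunit that joins late in assembly, was at 21.7, 22.7 and 24.5 FPKM in WT against 18.8, 18.8 and 16.9 in KO. Its log2 fold change was -0.32 (SE 0.10, adjusted p = 0.303), and -0.19 with the length trend removed. Ndufv3 varied little within groups, at 14.4, 14.0 and 14.0 in WT against 12.005, 11.4 and 11.5 in KO. The means were 14.1 ± 0.26 and 11.6 ± 0.33 (SD, n = 3), with no overlap and a log2 fold change of -0.26 (SE 0.08, adjusted p = 0.303). That change was -0.19 with the length trend removed. Ndufa7 and Ndufs4, the second a subunit whose loss in humans causes Leigh syndrome, also lay wholly below WT, at ratios of 0.789 and 0.892. Ndufa5 and Ndufa6 overlapped, at ratios of 0.869 and 0.914, and Ndufa9, an NAD(P)-binding subunit near the ubiquinone module, was at a ratio of 1.05.

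Ndufa12 was the peripheral gene with the highest ratio, 1.22, and that value came from 1 library. This gene was singled out after its values were seen. It was at 15.3, 13.3 and 14.9 FPKM in WT against 13.2, 27.5 and 12.3 in KO. KO2 was 2.23 times the lowest library, and the log2 fold change went from 0.18 to -0.17 without KO2.

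All 9 accessory subunits of the proximal membrane arm, which surround the core beside ubiquinone, were below 0, with a median of -0.23. Of these, 5 lay wholly below WT. Over all genes tested 48.7% were below 0 and 10.1% wholly below WT. The median length of the 9 was 1022 bases. Among protein-coding genes of 1000 to 2000 bases the 2 shares were 75.1% and 25.9%. With the length trend removed 7 of the 9 were below 0 (50.1% of all genes), with a median of -0.08. Then 2 lay wholly below WT (9.15% of all genes). Ndufa13, also known as GRIM-19 for a role in interferon and retinoid responses, had the lowest ratio of KO to WT of the 45 genes. It was at 53.2, 56.7 and 52.6 FPKM in WT against 42.0, 36.9 and 33.0 in KO, and no KO library reached the WT range. The means were 54.2 ± 2.21 and 37.3 ± 4.49 (SD, n = 3), a ratio of 0.689. The log2 fold change was -0.53 (SE 0.11, adjusted p = 0.302), -0.40 with the length trend removed, and between -0.62 and -0.45 with any 1 library left out. Its adjusted p was 0.175 to 0.685 over the 15 alternatives.

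Ndufa13 (ENSMUSG00000036199) lies on chromosome 8 from 69894180 to 69902558. The table lists Yjefn3, on the same strand, over all 8379 bases of that span, at 15.2 FPKM in WT against 13.0 in KO. A mean of 212 reads per library were assigned to Yjefn3 and 973 to Ndufa13. The sources used here do not give how reads shared by overlapping genes were assigned. Of the 45 members, 21 had a span that overlapped another listed gene, and for 11 of them a neighbour held at least 10% as many reads as the member.

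Ndufa8, an intermembrane-space subunit held by disulphide bonds, was at 84.2, 81.6 and 70.2 FPKM in WT against 63.8, 62.3 and 59.7 in KO. WT3 was the lowest WT library and still above each KO library. The log2 fold change was -0.34 (SE 0.11, adjusted p = 0.303), and -0.20 with the length trend removed. Ndufa11, related to the Tim17 family of import proteins, was at 67.6, 58.1 and 63.2 in WT against 52.0, 52.3 and 51.5 in KO. Its KO libraries were nearly equal, and the log2 fold change was -0.27 (SE 0.10, adjusted p = 0.318), and -0.14 with the length trend removed. Ndufc1 and Ndufa3 also lay wholly below WT, at ratios of 0.847 and 0.886. The X-linked Ndufa1, Ndufs5, Ndufc2 and Ndufa10 overlapped, at ratios from 0.853 (Ndufa1) to 0.991 (Ndufa10).

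All 10 Ndufb subunits, which line the distal membrane arm with its proton-pumping units, were below 0, with a median of -0.22. Of these, 6 lay wholly below WT. Over all genes tested 48.7% were below 0 and 10.1% wholly below WT. The median length of the 10 was 1566.5 bases. Among protein-coding genes of 1000 to 2000 bases the 2 shares were 75.1% and 25.9%. With the length trend removed all 10 were below 0 (50.1% of all genes), with a median of -0.09. Then 3 lay wholly below WT (9.15% of all genes). Ndufb1 was not among the 10, because the table lists this locus as Ndufb1-ps with a non-coding biotype. Ndufb11, an X-linked subunit, was at 69.7, 78.6 and 67.8 FPKM in WT against 53.6, 48.6 and 59.6 in KO. The groups did not overlap, and the means were 72.0 ± 5.78 and 53.9 ± 5.53 (SD, n = 3). The log2 fold change was -0.41 (SE 0.12, adjusted p = 0.302), and -0.28 with the length trend removed. The gene (ENSMUSG00000031059) lies on chromosome X from 20615326 to 20617619, and its span overlaps that of Rbm10 on the other strand by 117 bases.

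Ndufb10 was at 73.8, 70.5 and 71.2 FPKM in WT against 60.5, 62.5 and 60.8 in KO. Both groups were narrow, at 71.8 ± 1.76 and 61.3 ± 1.10 (SD, n = 3), and the log2 fold change was -0.23 (SE 0.09, adjusted p = 0.329). That change was -0.09 with the length trend removed. Ndufb7, a subunit on the intermembrane-space side, was at 9.12, 10.6 and 9.59 in WT against 8.15, 7.72 and 8.60 in KO. It was listed with 4522 bases, and its log2 fold change of -0.23 (SE 0.10, adjusted p = 0.344) was -0.24 with the length trend removed. Ndufb3, Ndufb4 and Ndufb8 also lay wholly below WT, at ratios of 0.853, 0.869 and 0.863. Ndufb2, Ndufb5, Ndufb6 and Ndufb9 overlapped, and in Ndufb6 the spread was wide within WT, from 30.1 in WT3 to 50.5 in WT1.

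**Figure D4:**
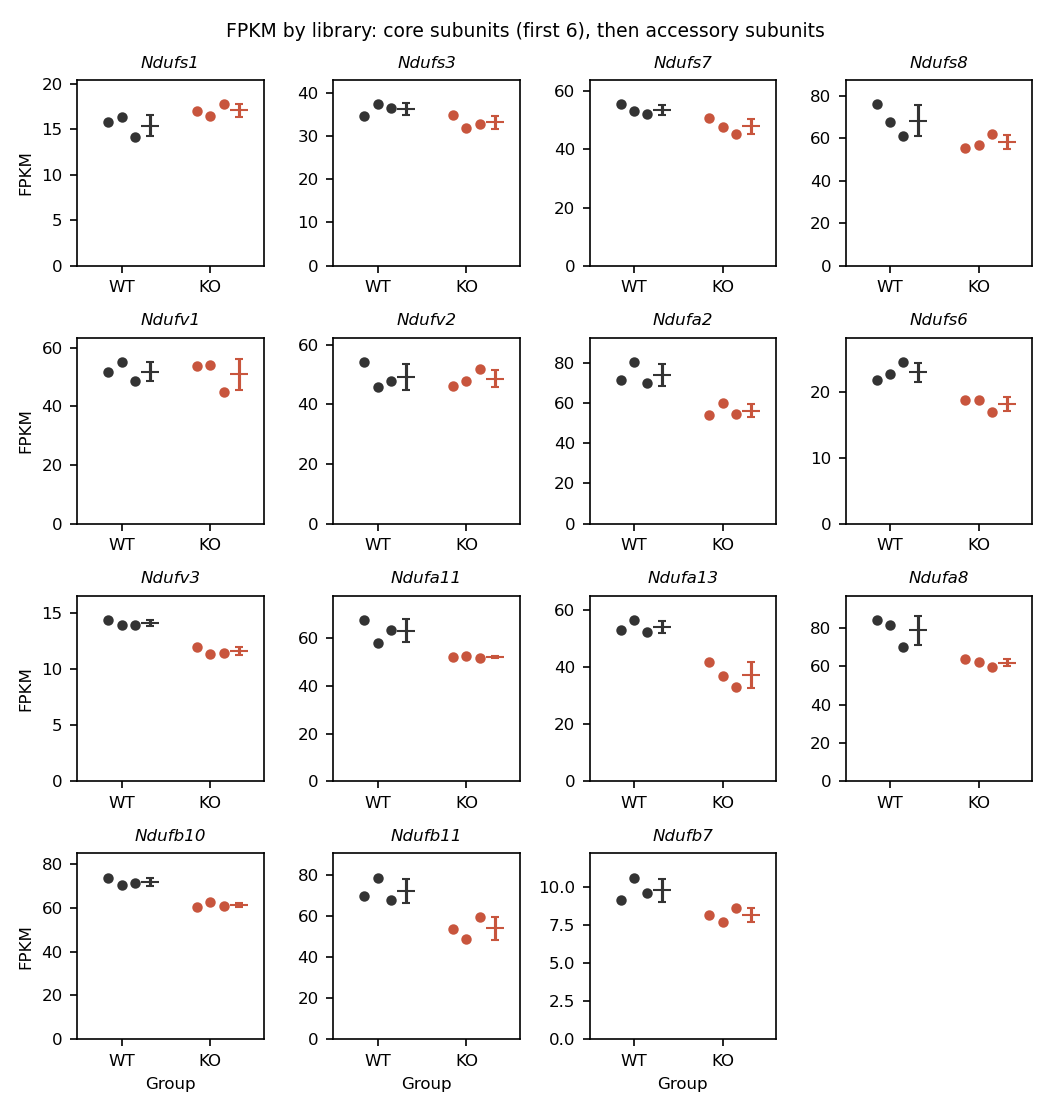
FPKM (y axis, from 0) in each WT (dark) and KO (red) library for 6 core subunits and the 3 accessory subunits of smallest p in each of 3 parts of the complex; the cross and bars are the mean ± SD of 3 libraries. The 9 accessory genes show no overlap between groups, and among the core genes drawn Ndufs1 and Ndufs7 show none.

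Ndufab1, the mitochondrial acyl carrier protein that sits in both arms and also serves fatty acid and iron-sulphur synthesis, was at 4.71, 3.28 and 3.34 FPKM in WT against 2.75, 3.56 and 3.79 in KO. The groups overlapped, WT1 was the highest library, and the log2 fold change of -0.12 (SE 0.16) was 0.01 without WT1. A processed copy, Ndufab1-ps, was at 12.6, 9.87 and 9.87 FPKM in WT against 6.89, 6.90 and 6.87 in KO, with no overlap. The copy is not a member and was singled out after its values were seen. It held a mean of 87.3 reads per WT library, and Ndufab1 held 452. How any reads shared by the 2 genes were divided is not given, and their sequences were not compared. Both values are therefore uncertain. Ndufa4, first purified with complex I and now counted as a subunit of complex IV, was at 86.8, 94.1 and 90.6 in WT against 80.5, 88.7 and 99.5 in KO. Its groups overlapped, with a log2 fold change of -0.02 (SE 0.11) that was 0.04 with values rescaled to 1 common sum.

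The 8 assembly factors lay on both sides of 0. Their median log2 fold change was -0.14 with 6 of 8 below 0, against -0.19 with 33 of 37 for the subunits. KO lay wholly below WT for 1 factor and wholly above for 1, against 17 and 1 of the subunits. Over all genes tested these shares were 10.1% and 11.9%. The difference of the median log2 fold changes was -0.04. In each library the median deviation from the gene mean was also taken, subunits minus factors. It was -0.01, 0.04 and 0.09 in WT against 0.06, -0.14 and -0.06 in KO, with overlap (SD within a group 0.08). The difference of the median log2 fold changes was -0.16 without KO1 and -0.13 without WT1, where the median of the factors was -0.02 and -0.04. No test was run over genes, and the 2 groups are set side by side as a description.

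Ndufaf3 and Ndufaf4 act together in building the module that holds the ubiquinone site, and they stood on opposite sides of 0. Ndufaf3 was at 20.7, 17.0 and 21.6 FPKM in WT against 15.1, 15.6 and 14.0 in KO, with no overlap. Its log2 fold change was -0.38 (SE 0.12, adjusted p = 0.303), and -0.27 with the length trend removed. It lies on chromosome 9 from 108565537 to 108567434, and its span overlaps that of Impdh2 on the other strand by 48 bases. Ndufaf4 was at 7.62, 6.01 and 7.82 in WT against 7.61, 7.68 and 9.50 in KO. KO3 was its highest library, the groups overlapped, and the log2 fold change was 0.19 (SE 0.13, adjusted p = 0.524).

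Ndufaf5 hydroxylates Ndufs7, and Ndufaf8 is its partner. Ndufaf8 was at 7.05, 10.4 and 9.52 FPKM in WT against 6.79, 7.05 and 6.55 in KO, so that only WT1 reached down to the KO values. The log2 fold change was -0.34 (SE 0.14, adjusted p = 0.342), on 90 to 139 reads per library, and -0.21 with the length trend removed. Ndufaf5 was at 13.6, 10.5 and 10.8 in WT against 8.85, 11.4 and 11.4 in KO. WT1 was the highest and KO1 the lowest, and the other 4 libraries were close together.

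Ndufaf6, a factor of the early steps with a phytoene-synthase-like fold, was at 4.42, 5.05 and 3.60 FPKM in WT against 5.47, 5.28 and 5.16 in KO. All KO values were above WT, with a log2 fold change of 0.24 (SE 0.12, adjusted p = 0.392) on 75 to 113 reads per library. That change was 0.38 with the length trend removed. Ndufaf1, which works on the membrane arm with Ecsit, Acad9 and Tmem126b, was at 13.0, 11.9 and 9.31 in WT against 9.33, 9.34 and 11.5 in KO. Ndufaf2, a relative of Ndufa12, was at 3.75, 2.98 and 3.96 in WT against 2.39, 3.68 and 3.22 in KO. Its span overlaps Smim15 on the other strand, which held a mean of 662 reads per library against 169 for Ndufaf2. Ndufaf7, a mitochondrial methyltransferase, was at 9.90, 10.3 and 8.17 in WT against 9.14, 9.70 and 8.96 in KO. In Ndufaf1, Ndufaf2 and Ndufaf7 the groups overlapped.

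**Figure D5:**
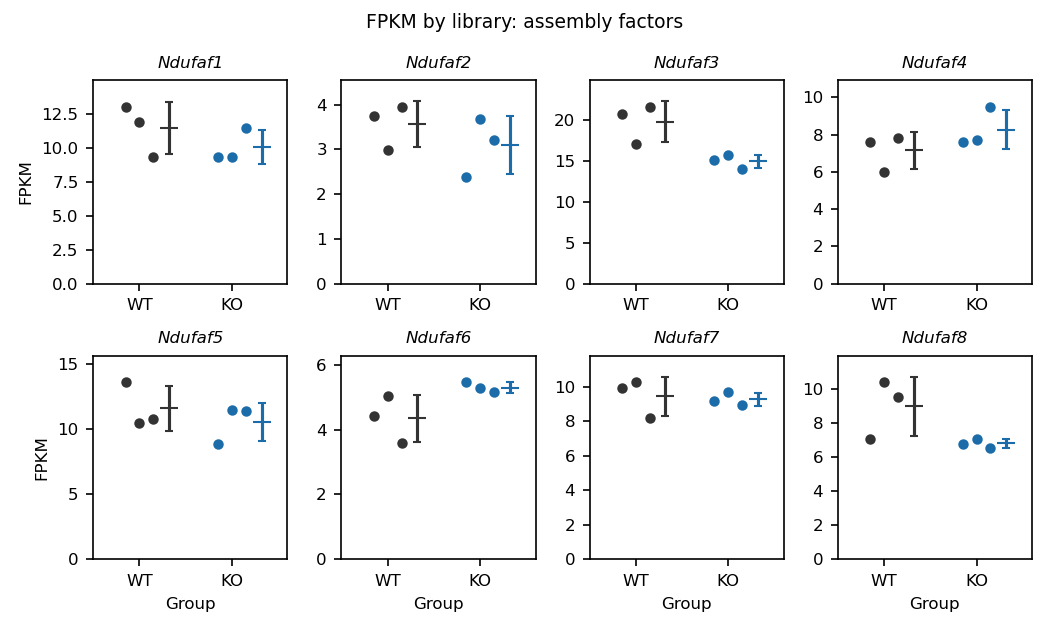
FPKM (y axis, from 0) in each WT (dark) and KO (blue) library for the 8 assembly factors, with the mean ± SD of 3 libraries as cross and bars. Ndufaf3 lies wholly lower and Ndufaf6 wholly higher in KO; the other 6 overlap, Ndufaf8 only through WT1.

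Other genes that work with complex I were taken from lists. Of 11 listed assembly factors without an Ndufaf name, 10 were in the table and tested. Their median was -0.06 with 6 below 0, and 0 were at an unadjusted p under 0.05. Tmem186 was at 5.46 ± 0.14 FPKM in WT against 4.62 ± 0.40 in KO (SD, n = 3), with no overlap, and Dmac2 was at 14.6 ± 1.98 and 12.3 ± 1.53. Ecsit, Acad9 and Tmem126b, the partners of Ndufaf1, had log2 fold changes of 0.07, 0.08 and 0.02.

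The 7 complex I subunits encoded in mitochondrial DNA were all below 0, with a median of -0.29, and in all 7 the groups overlapped. Their levels were highest in WT3, where the sum was 28974 FPKM, against 17244 in WT1, 15443 in WT2, and 14032, 13881 and 20099 in the KO libraries. mt-Nd6, the one on the other strand, was at 3423, 2359 and 4296 in WT against 2148, 2157 and 3142 in KO. mt-Nd4 was at 2909, 2593 and 5069 in WT against 2386, 2294 and 3415 in KO. The nuclear subunits did not follow that order: their mean deviation on the log2 scale was 0.12, 0.08 and 0.05 in WT1, WT2 and WT3, and -0.11, -0.08 and -0.06 in KO1, KO2 and KO3. Without WT3 the median of the nuclear subunits was -0.18, and with the libraries rescaled over genes outside mitochondrial DNA it was -0.17.

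In the other complexes of the chain, 11 of 11 nuclear subunits of complex IV were below 0 (median -0.20), 11 of 15 of ATP synthase (-0.19), 7 of 9 of complex III (-0.04) and 3 of 4 of complex II (-0.04). In limma 0 of these passed after adjustment. At an unadjusted p under 0.05 there were 2, 4, 2 and 0, in that order, all lower in KO. Over all genes tested 7.25% were lower at that level. The median lengths of the 4 lists were 1147, 2181, 1363 and 2744.5 bases, in the same order. Over all genes tested 48.7% were below 0. Among protein-coding genes of 1000 to 2000 bases 75.1% were below 0, with a median of -0.17. From 2000 to 4000 bases these values were 61.6% and -0.06. Cox5b, of complex IV, was at 49.4, 48.6 and 46.8 FPKM in WT against 39.6, 35.03 and 32.5 in KO, and Cox6b1 at 136, 132 and 137 against 102, 117 and 120. Atp5d, of the ATP synthase stalk, was at 102, 102 and 98.8 in WT against 82.6, 85.0 and 74.2 in KO, and Atp5e, its neighbour there, at 25.7, 24.8 and 29.0 against 17.5, 19.5 and 23.8. These 4 genes, which have the smallest p of their lists, did not overlap between groups. KO lay wholly below WT for 4 of 11 genes of complex IV and 5 of 15 of ATP synthase. The counts were 2 of 9 for complex III and 0 of 4 for complex II. Over all genes tested the share was 10.1%, and for protein-coding genes of 1000 to 2000 bases 25.9%.

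Uqcr11, a small subunit of complex III, was at 44.0, 50.4 and 50.1 FPKM in WT against 37.1, 34.0 and 28.8 in KO, and Uqcrq at 38.7, 45.3 and 48.0 against 33.0, 31.9 and 34.5. Neither overlapped between groups, and both were taken for the smallest p of their list. In complex II, Sdhc, a membrane anchor, was at 25.2, 21.02 and 24.7 in WT against 22.6, 21.3 and 21.01 in KO, and the iron-sulphur subunit Sdhb at 62.6, 54.8 and 47.6 against 53.0, 50.3 and 52.3. Both of these overlapped.

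Of 12 listed transcription regulators of nuclear respiratory genes, all tested, 4 were below 0 and 8 above, with a median of 0.05. These are long genes, with a median of 6505 bases, and among all protein-coding genes above 4000 bases 36.2% were below 0, with a median of 0.07. The list thus stood near other genes of its length. Ppargc1a, the coactivator known for driving mitochondrial gene expression, was at 5.10, 8.11 and 6.59 FPKM in WT against 10.4, 9.94 and 9.22 in KO, with no overlap. Its log2 fold change was 0.53 (adjusted p = 0.302). Esrrg, a nuclear receptor that works with it, was at 1.80, 4.82 and 4.01 in WT against 7.64, 6.86 and 6.93 in KO, also with no overlap, and had a log2 fold change of 0.91 (adjusted p = 0.302). These 2 of 12 were the regulators at an unadjusted p under 0.05 in limma, where 7.05% of all genes tested were higher. After adjustment 0 passed. Nrf1, Gabpa and Tfam, which bind nuclear or mitochondrial promoters, had log2 fold changes of -0.01, 0.03 and -0.00.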

How the data were processed

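RNA-seq of basolateral amygdala was analysed from 1 deposited table of gene FPKM, with 3 WT and 3 KO libraries matched to samples by column name. The submitters' processing notes name GRCm38 and mm10; the sources used here do not give the aligner, counter or strand. In each library every FPKM times gene length was a multiple of a fixed step (100% of values, tolerance 0.01 reads), which gave the reads behind it, used for depth and in voom. The main test was limma 3.58.1 (R 4.3.3; variance trend, two-sided) on log2(FPKM + 1), KO minus WT, over 13087 genes of mean FPKM 1 or more; all 45 members were kept. Adjustment was by Benjamini-Hochberg over all of them, threshold 0.05; SE is limma's moderated error, and fold changes on this scale understate low genes. The code was tested on simulated data. For a single value, 3 libraries against 3 cannot reach an exact permutation p below 0.1.

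Members, roles and lists were chosen with earlier results of these data known. Values in every library are given for core subunits (1 is not reported here by its own values), Ndufab1, Ndufa4, assembly factors and the 3 accessory subunits of smallest p in each part of the complex, and up to 2 genes of smallest p are taken from each pathway list. The deviations of same-numbered libraries had correlations across genes of 0.17, 0.15 and 0.33. The highest of the other pairs was WT2 with KO1, 0.28, so these values do not establish a pairing by number. The labels give no pairing, and the main fit was unpaired. A replicate block by number was an alternative. Others varied the pseudocount, filter, variance trend, scaling and length trend, or left out 1 library. A planned search of promoter motifs was not run.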

Additional observations from a re-analysis of the deposited data

How the results depend on the processing

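Across 15 alternatives 33 of 45 members kept the sign of their log2 fold change, and 0 members passed after adjustment in any of them. The medians of subunits and assembly factors stayed below 0 throughout. With the libraries rescaled to 1 common sum, which moved the median of all genes from 0.01 to 0.06, members lower at an unadjusted p under 0.05 numbered 5 in place of 12 (4.43% of all genes), subunits wholly below WT 8 in place of 17 (6.07% of all genes), and the subunit median was -0.13. Genes of all kinds at that level then split into 1224 higher and 580 lower, in place of 923 and 949. With the length trend removed the same 2 counts were 5 and 8, the subunit median -0.085 and that of the assembly factors -0.028. The 1 gene passing over all genes became 0 with no filter, no variance trend, quantile normalization, the length trend removed or the replicate block. Under the block 0 members passed after adjustment in limma. There 11 members in place of 12 were lower at an unadjusted p under 0.05 (9.92% of all genes). Leaving out 1 library gave 0 to 9 genes passing (9 without WT3), 6 to 11 members lower, assembly factor medians of -0.18 to -0.023, and differences of subunit and factor medians of -0.16 to -0.017. Members near 0 changed sign. Rescaled to 1 common sum, Ndufv1 was 0.030, Ndufv2 0.041, Ndufa4 0.039 and Ndufaf7 0.032. With quantile normalization Ndufv2 was 0.0091 and Ndufa4 0.053. With the length trend removed Ndufv1 was 0.045, Ndufv2 0.076, Ndufa4 0.11 and Ndufaf7 0.0091. With 1 library left out the ranges were -0.075 to 0.059 for Ndufv1, -0.066 to 0.054 for Ndufv2, -0.097 to 0.054 for Ndufa4, -0.11 to 0.037 for Ndufaf7 and -0.20 to 0.011 for Ndufab1. The cause of these shifts was not tested. Planned edgeR and DESeq2 fits were not run, since the file holds FPKM; voom on the recovered reads, chosen after seeing the data, took their place. Members with few reads, such as Ndufaf6 and Ndufaf8, are the least precise.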
